A study of Mus musculus with 18 samples.

Results

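Genes of fatty acid oxidation, together with genes known as targets of the receptor PPARα, were examined in the kidneys of 6-wk-old offspring of low protein (LP) and normal protein (NP) dams. The 36 genes were taken from a fixed list by symbol, and all 36 were found among the 78239 genes counted in every library. Each of the 18 RNA-seq libraries came from 1 mouse. There were 5 males and 5 females from LP dams, and 5 males and 3 females from NP dams. The mice were outbred CD-1 and are labelled WT. Dams were fed 8% protein (LP) or 18% protein (NP) through gestation and lactation, and all offspring received the NP diet from weaning at 3 wk. All mice had also been injected with cationic ferritin, with 90 min between the final injection and collection in males and 24 h in females. Sex and the time from injection to collection therefore cannot be told apart. RNA came from part of the left kidney according to the methods, and from the whole kidney according to the series text. The labels do not give the litters, so littermates may be among the mice of a group.

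Fatty acids are the main fuel of the proximal tubule. They enter cells in part through CD36, are activated to acyl-CoA by acyl-CoA synthetases, cross the mitochondrial membranes as carnitine esters, and are shortened by β-oxidation, whose electrons pass through the electron transfer flavoprotein to the respiratory chain. Peroxisomes shorten very long and branched chains, and acyl-CoA thioesterases release the free acid again. PPARα, a nuclear receptor that binds fatty acids, pairs with RXR on a DNA element made of half-sites in direct repeat with 1 base between them (DR1), and PGC-1α is a coactivator of this and other receptors.

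The libraries held 14050486 to 23562411 reads on genes, and 12665 genes had 10 counts or more in each. Reads on the 36 genes made up 0.650% to 1.04% of those counted, with the lowest shares in LP female 1 (0.650%), NP female 3 (0.653%), and LP female 2 (0.760%). Earlier results of these data had set these 3 female libraries apart. Their mitochondrially encoded reads were 10.4% to 16.5%, and their sums of 9 interferon-responsive genes were 97.9 to 191 CPM (counts scaled to library size), versus 962 CPM or more in the other females. Defining markers of the proximal tubule were present in every library, with a sum of 9 genes between 12018 and 18920 CPM. Y-chromosome genes and *Xist* fitted the labelled sex in all 18 libraries. In bulk RNA, fewer cells of a type and less RNA per cell cannot be told apart.

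Sequences before the transcription start are shown for the 3 genes of the list whose promoters came closest to the DR1 element. Windows from 250 bases before to 50 bases after the start of the canonical transcript were read from GRCm39 and searched on both strands for DR1, written as the half-site AGGTCA followed by any 1 base and AGGTCA again. No gene of the list held an exact copy, which 10 of 21751 promoters held. *Fabp1*, encoding the liver fatty acid-binding protein, had a match with 1 mismatch (AGGCCATAGGTCA), as had 0.455% of promoters. *Plin2*, encoding a coat protein of lipid droplets (AGGTCAGGGGTCC), and *Vnn1*, encoding the pantetheinase vanin-1 (AGGTCACACGTGA), had matches with 2 mismatches, and 3.46% of promoters had 2 or fewer. With 3 mismatches allowed, 9 of 36 windows matched, versus 23.5% of all promoters, and the single half-site AGGTCA, which is also part of DR1, was in 7 of 36 windows versus 15.1% of all promoters. The 150 bases before each start are given 5′ to 3′ on the strand of the gene, with the DR1 match in capitals. All 3 matches lie on the opposite strand, so the capitals read as the reverse complement of the letters above. The windows are chr6:71176659-71176808 (plus strand), chr4:86588460-86588609 (minus strand), and chr10:23770436-23770585 (plus strand) in GRCm39.
Fabp1: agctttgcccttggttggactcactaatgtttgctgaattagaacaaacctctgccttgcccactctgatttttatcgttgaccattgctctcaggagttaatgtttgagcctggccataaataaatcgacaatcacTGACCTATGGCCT
Plin2: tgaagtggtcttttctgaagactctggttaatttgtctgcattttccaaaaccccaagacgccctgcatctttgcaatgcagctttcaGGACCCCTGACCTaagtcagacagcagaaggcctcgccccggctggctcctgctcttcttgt
Vnn1: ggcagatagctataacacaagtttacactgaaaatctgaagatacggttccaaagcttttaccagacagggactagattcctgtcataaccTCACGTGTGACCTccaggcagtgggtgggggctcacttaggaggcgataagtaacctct

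*Hadha* and *Hadhb*, which encode the α and β subunits of the mitochondrial trifunctional protein, are transcribed away from each other on chromosome 5, and the starts of their canonical transcripts are separated by 64 bases. This interval (chr5:30360182-30360245, GRCm39, plus strand) is shown because both genes differed in the same direction between the sexes. Of its bases, 73.4% are G or C.
Hadha-Hadhb interval: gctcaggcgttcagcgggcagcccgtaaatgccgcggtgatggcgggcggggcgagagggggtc

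*Acaa1a* and *Acaa1b*, both on chromosome 9, encode the peroxisomal 3-ketoacyl-CoA thiolases and are shown because reads that fit both genes were not counted on either. Their coding sequences of 1275 bases are 96.5% identical, with 44 differences and a longest shared run of 327 bases. Coding bases 259 to 318 hold 11 of the differences, in capitals.
Acaa1a: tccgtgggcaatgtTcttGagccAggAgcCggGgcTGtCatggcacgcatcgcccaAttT
Acaa1b: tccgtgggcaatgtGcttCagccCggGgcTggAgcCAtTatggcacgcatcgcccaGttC

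The cytosolic, mitochondrial, and peroxisomal thioesterase genes *Acot1* to *Acot4* lie side by side on chromosome 12 and also share sequence, with 85.5% identity and a shared run of 273 bases between the coding sequences of *Acot1* and *Acot2*, and 83.5% and 203 bases between *Acot1* and *Acot3*. Reads that fit more than 1 of these genes equally well are missing from their counts. Overlap with other genes has the same effect, since the library was non-directional and reads on exons of 2 genes were not counted on either. Exons of another listed gene covered part of the canonical transcript in 16 of 36 genes, and over 10% of it in 12. The share was 69.1% for *Etfb* (under *Etfbl*, which had 0 counts in every library), 53.8% for *Hadha*, 50.8% for *Ppara* (under *Cdpf1*), 44.5% for *Acadvl* (under *Dvl2*), 41.7% for *Acot3*, and 25.2% for *Etfdh* (under *Ppid*). The levels of these genes are therefore counts on a part of the transcript only.

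**Figure D1:**
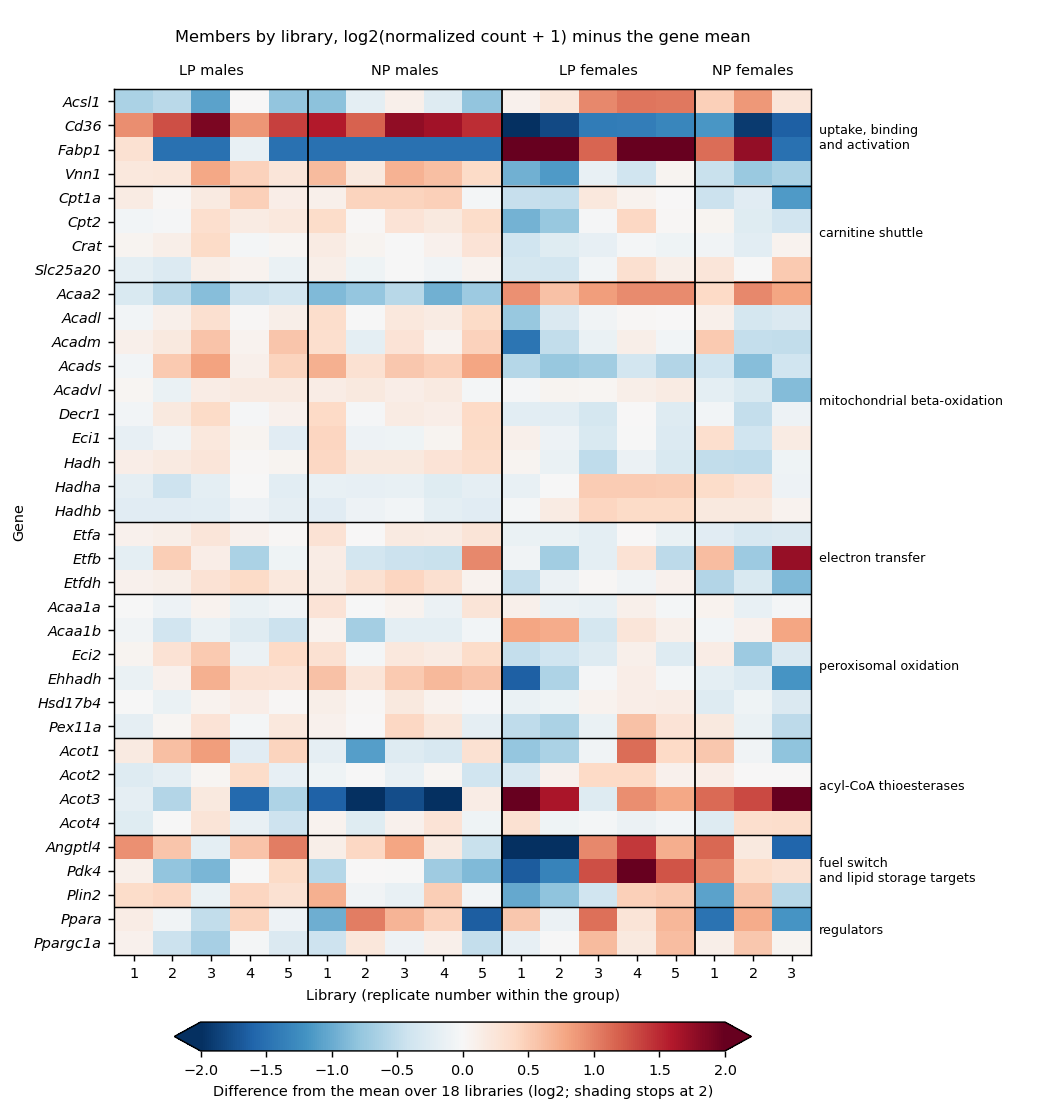
Each row is 1 of the 36 genes, ordered by role, and each column is 1 mouse. Color gives log2(normalized count + 1) minus the mean of the gene over the 18 libraries, and shading stops at 2 in either direction. Cd36 is high in all males and Acaa2 in all females, while Angptl4 is lowest in LP female 1, LP female 2, and NP female 3.

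Levels are given as normalized counts, which are counts divided by the size factor of each library, and are compared between genes per kilobase of canonical transcript. Per kilobase, *Acadm*, encoding medium-chain acyl-CoA dehydrogenase, had the highest median level at 16135 normalized counts over the 18 libraries. *Hadh*, encoding the short-chain hydroxyacyl-CoA dehydrogenase, followed at 5963, *Ehhadh*, encoding the peroxisomal bifunctional enzyme, at 4801, and *Etfa*, encoding the α subunit of the electron transfer flavoprotein, at 3848. In males alone *Cd36* (5246 per kilobase) was above *Etfa* (4182), whereas in females *Cd36* was at 683 and *Etfa* at 3384. The range of *Ehhadh* over libraries, 1433 to 7298 per kilobase, covered the medians of *Hadh* and *Etfa*, so the order among these is not separated by the spread. At the other end were *Acot3* at 58.6 and *Fabp1* at 1.36 normalized counts per kilobase. Whole transcript lengths were used, so levels are understated for genes partly under exons of other genes. These include *Acot3* (41.7% of its transcript), *Hadha*, *Ppara*, and *Etfb*. *Fabp1* was the 1 gene of the list that was not tested. It had between 0 and 2.49 normalized counts in males and between 0 and 15.96 in females, with counts in 2 of 10 males and 7 of 8 females.

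The spread between mice of a group differed widely from gene to gene. The median SD within groups, on the log2 scale, was 0.26 over the 35 tested genes of the list and 0.29 over all 12665 genes tested. *Etfa* (0.09), *Hsd17b4* (0.10), *Hadhb* (0.12), and *Acaa1a* (0.13) varied least. *Angptl4* (1.45), *Pdk4* (1.01), *Acot3* (0.84), and *Ppara* (0.82) varied most of the tested genes. All 4 of these were more variable than 97.0% or more of all genes tested.

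Males and females were compared over both diets with the quasi-likelihood test of edgeR, with Benjamini-Hochberg adjustment over all genes and a call at an adjusted p under 0.05. Of the 35 tested genes, 21 were called, in a comparison in which 38.7% of all genes tested were called. Of these, 13 were higher in males, versus 18.9% of all genes tested, and 8 were higher in females, versus 19.8%. At an unadjusted p under 0.05 there were 24 of 35, versus 46.9% of all genes tested, and 8 of 35 were called with a difference of at least 1.5-fold, versus 18.7% of all genes tested. In 5 of the 35 the 10 males and 8 females did not overlap, versus 8.27% of all genes tested. All males were above all females in 3 of these (5.88% of all genes tested) and below them in 2 (2.39%). The median log2 difference (males over females) was 0.14 for the list and -0.05 for all genes. Within the mitochondrial enzymes, 3 of the 4 acyl-CoA dehydrogenases (*Acads*, *Acadl*, and *Acadvl*, but not *Acadm*) were called as higher in males. The log2 difference of *Acadm* was 0.45 (SE 0.19), versus 0.34 (SE 0.10) for *Acadl* and 0.28 (SE 0.08) for *Acadvl*. The trifunctional protein and the last thiolase were called as higher in females.

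**Figure D2:**
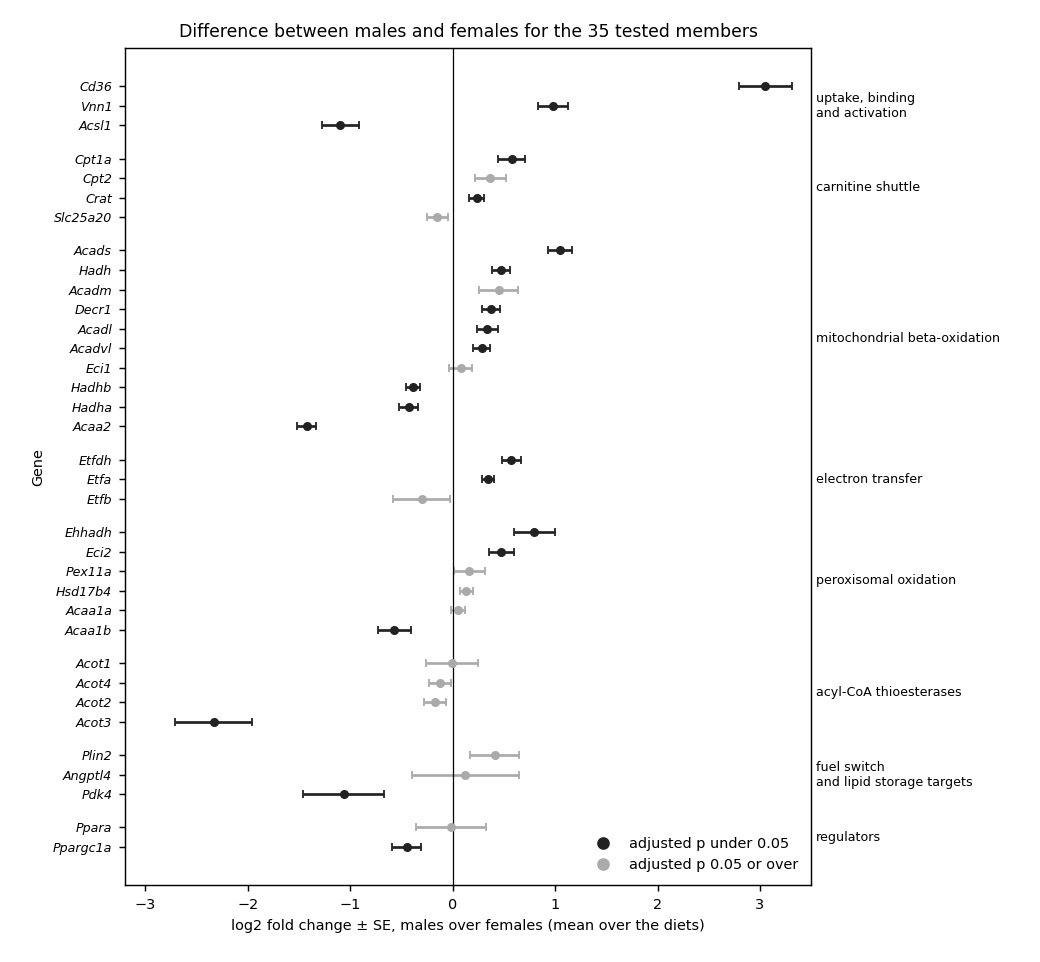
Points are log2 fold changes of males over females for the 35 tested genes, bars are standard errors (SE), and black points have an adjusted p under 0.05. Cd36 lies at 3.05 and Acot3 at -2.33, and genes on both sides of 0 occur among the mitochondrial and the peroxisomal enzymes.

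*Cd36*, encoding the fatty acid translocase, was 8.29-fold higher in males (log2 difference 3.05, SE 0.26, edgeR adjusted p = 8.01e-08). LP males had 13055, 16736, 25238, 12565, and 17668 normalized counts, and NP males had 20511, 15534, 23455, 21838, and 19108. LP females had 608, 1959, 2599, 2618, and 2772, and NP females had 3051, 1820.1, and 2192. The lowest male lay far above the highest female, and LP female 1 had the lowest level of all mice. *Cd36* is also expressed by adipocytes, whose 6 markers summed to over 10 CPM in 3 of 10 males and 3 of 8 females (ranges 0 to 84.5 CPM and 0.106 to 241 CPM). Without these 6 libraries the log2 difference of *Cd36* was 2.99 (edgeR adjusted p = 7.76e-04), and the part of adipocytes in its levels was not tested otherwise.

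*Vnn1* was 1.97-fold higher in males (SE 0.15 on the log2 scale, edgeR adjusted p = 4.93e-05). Its lowest, median, and highest levels were 1211, 1419, and 1802 normalized counts in males and 483, 731, and 1094 in females, without overlap. *Acsl1*, encoding a long-chain acyl-CoA synthetase, differed in the opposite direction and was 2.14-fold higher in females (SE 0.18, edgeR adjusted p = 1.26e-04). Males had 2117 to 4774 normalized counts with a median of 2962, and females had 4695 to 9340 with a median of 7155, so that LP female 1 and NP male 3 overlapped. *Vnn1*, which encodes a pantetheinase, was grouped here with *Cd36* and *Acsl1* under uptake, binding, and activation. All 3 were called between the sexes by edgeR, versus 38.7% of all genes tested.

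**Figure D3:**
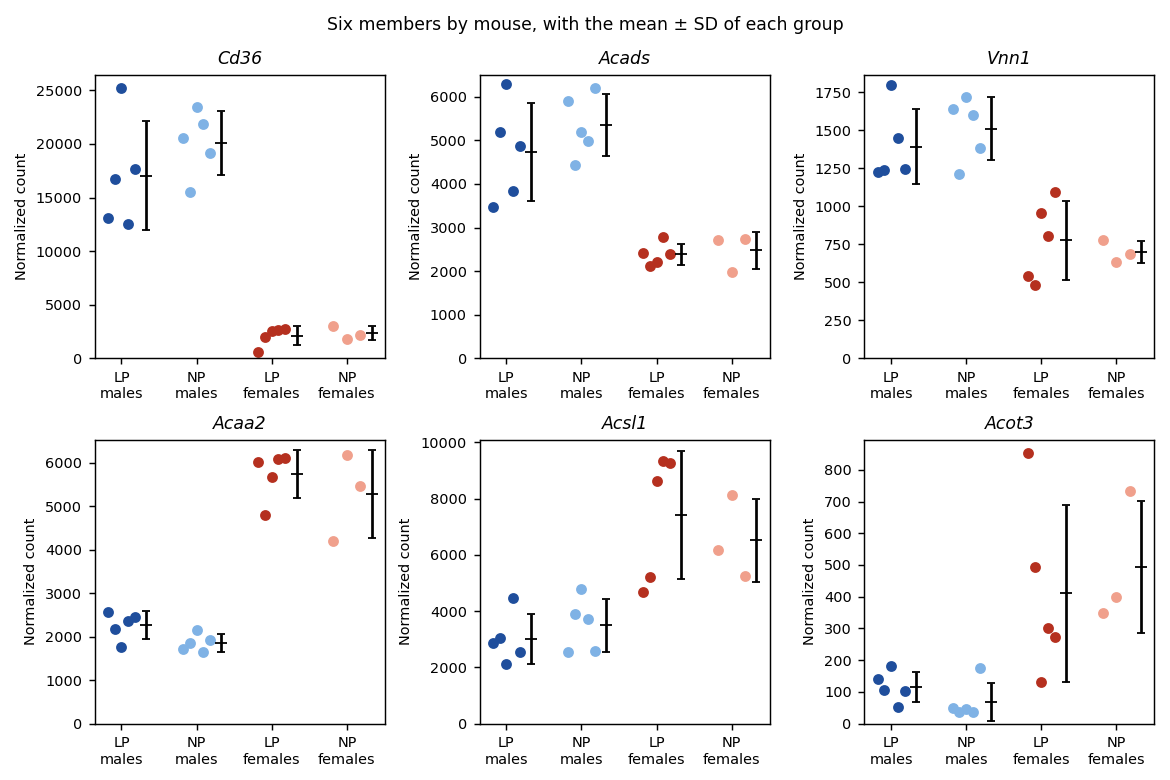
Normalized counts of Cd36, Acads, Vnn1, Acaa2, Acsl1, and Acot3 are plotted by group, with 1 point per mouse and the mean ± SD beside it. The axes start at 0, and males lie above all females for the first 3 genes and below all females for Acaa2.

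In the carnitine shuttle, *Cpt1a*, encoding the outer membrane palmitoyltransferase that sets the rate of entry, was 1.49-fold higher in males (SE 0.13 on the log2 scale, edgeR adjusted p = 0.00231). Its levels were 7320 to 10475 normalized counts in males and 3461 to 8745 in females, with overlap. *Crat*, encoding carnitine acetyltransferase, was 1.18-fold higher in males (adjusted p = 0.0174). *Cpt2*, encoding the inner membrane enzyme, had a log2 difference of 0.37 (SE 0.15) and *Slc25a20*, encoding the carnitine carrier, one of -0.15 (SE 0.10). Neither was called by edgeR, and DESeq2 called *Cpt2* (adjusted p = 0.0462).

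Of the 10 genes of mitochondrial β-oxidation, 5 were higher in males, 3 were higher in females, and 2 were not called. *Acads*, encoding short-chain acyl-CoA dehydrogenase, was 2.06-fold higher in males (SE 0.12 on the log2 scale, edgeR adjusted p = 2.19e-06). LP males had 3471, 5182, 6293, 3838, and 4872 normalized counts, and NP males 5896, 4429, 5198, 4989, and 6211. LP females had 2419, 2124, 2216, 2773, and 2383, and NP females 2717, 1983, and 2737. The lowest male was above the highest female. *Hadh* was 1.39-fold higher in males (adjusted p = 3.90e-04), with 10499 to 13724 versus 7265 to 10649 normalized counts. *Acadl*, *Acadvl*, and *Decr1*, encoding the long-chain and very long-chain acyl-CoA dehydrogenases and 2,4-dienoyl-CoA reductase, were higher in males by 1.22- to 1.29-fold. For *Acadvl* the log2 difference was 0.55 in NP mice alone (edgeR adjusted p = 0.0477) and 0.02 in LP mice alone (adjusted p = 0.882). *Acadm*, the most abundant of the genes, had a log2 difference of 0.45 (SE 0.19, adjusted p = 0.0707), with 27313 to 46180 normalized counts in males and 11353 to 44565 in females.

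*Acaa2*, encoding the mitochondrial thiolase of the last step, was 2.68-fold higher in females (log2 difference -1.42, SE 0.09, edgeR adjusted p = 3.63e-09). LP males had 2572, 2179, 1759, 2362, and 2464 normalized counts, and NP males 1718, 1861, 2165, 1639, and 1925. LP females had 6012, 4789, 5681, 6095, and 6110.4, and NP females 4198, 6173, and 5477. The gap between the highest male and the lowest female was wider than the range of the males. *Hadhb* was 1.31-fold higher in females (adjusted p = 1.81e-04), with 3234 to 3669 normalized counts in males and 3695 to 5089 in females, and *Hadha* was 1.35-fold higher (adjusted p = 0.00205), with 3338 to 4424 versus 4020.4 to 6327. The counts of *Hadha* come from the part of its transcript that is free of other exons.

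The electron transfer genes *Etfdh*, encoding the ubiquinone oxidoreductase, and *Etfa* were both higher in males. *Etfdh* differed 1.49-fold (SE 0.09 on the log2 scale, edgeR adjusted p = 9.42e-05), with 2788 to 3574 normalized counts in males and 1445 to 2816 in females. *Etfa* differed 1.27-fold (SE 0.06, adjusted p = 2.21e-04), with 6608 to 8051 versus 5274 to 6627. For both, 1 female exceeded the lowest male. *Etfb*, the β subunit, had a log2 difference of -0.30 (SE 0.28, adjusted p = 0.420), on a transcript that lies mostly under exons of *Etfbl*.

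In the peroxisome, *Ehhadh* was 1.74-fold (adjusted p = 0.00456) and *Eci2*, encoding an enoyl-CoA isomerase, 1.39-fold higher in males (adjusted p = 0.00439, edgeR). *Acaa1b* was 1.48-fold higher in females (adjusted p = 0.00887). *Acaa1a*, its near-identical neighbor, had a log2 difference of 0.06 (SE 0.07, adjusted p = 0.560). *Hsd17b4*, the D-bifunctional protein, and *Pex11a*, a peroxisome division gene, had log2 differences of 0.14 and 0.16 and were not called.

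*Acot3*, encoding a peroxisomal thioesterase, was 5.03-fold higher in females (log2 difference -2.33, SE 0.38, edgeR adjusted p = 1.15e-04). LP males had 140, 105, 181, 53.1, and 103 normalized counts, and NP males 50.8, 37.3, 45.7, 36.2, and 175. LP females had 852, 495, 132.0, 302, and 272, and NP females 350.3, 398, and 734. LP female 3 overlapped the 3 highest males. *Acot1*, *Acot2*, and *Acot4* had log2 differences between -0.17 and -0.01 with SEs of 0.11 to 0.26, and none was called.

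Of the targets for fuel choice and lipid storage, *Pdk4*, encoding the kinase that restrains pyruvate oxidation, was 2.09-fold higher in females (SE 0.39 on the log2 scale, edgeR adjusted p = 0.0405). Males had 367 to 909 normalized counts and females 219 to 3134. The *Pdk4* call was lost when any of 9 libraries was left out, with adjusted p = 0.0644 and 0.0669 without LP males 2 and 3, 0.0583, 0.0905, and 0.0569 without LP females 3, 4, and 5, 0.0595, 0.0618, and 0.0606 without NP males 1, 4, and 5, and 0.0994 without NP female 1. *Angptl4*, encoding an inhibitor of lipoprotein lipase, had a log2 difference of 0.12 with the largest SE of the list, 0.52, and *Plin2* had one of 0.41 (SE 0.24). Neither was called by edgeR, and limma-voom called *Plin2* as higher in males (adjusted p = 0.0171). Of the regulators, *Ppargc1a*, encoding PGC-1α, was 1.36-fold higher in females (adjusted p = 0.0190), with 772 to 1431 normalized counts in males and 1084 to 1894 in females. *Ppara* had a log2 difference of -0.01 (SE 0.34).

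The 6 genes *Acads*, *Acaa2*, *Acot3*, *Acsl1*, *Cd36*, and *Vnn1* were called in all 30 alternatives run. *Acadl* was no longer called without NP female 3 (adjusted p = 0.0567) and *Ppargc1a* without NP female 2 (adjusted p = 0.0591). *Acadm* and *Cpt2* were called as higher in males without LP female 4 (adjusted p = 0.0495 and 0.0123) and without NP female 1 (0.0118 and 0.0456), and *Hsd17b4* and *Plin2* without NP female 2 (0.0475 and 0.0228). *Acadm* and *Cpt2* were also called by DESeq2 (0.0487 and 0.0462) and by edgeR with no filter (0.0461 and 0.0431), and *Plin2* by edgeR without the 6 libraries with adipocyte markers over 10 CPM (0.0305). Within NP mice alone, 13 of the genes were called (9 higher in males), against 15.1% of all genes tested, and within LP mice alone 10 (5 higher in males), against 18.9%. Without the 3 females set apart, 18 were called (11 higher in males), and *Acaa1b*, *Acadl*, and *Acadvl* were not (edgeR adjusted p = 0.128, 0.0855, and 0.0747). For this count and the next, the share of all genes called is not given here, so neither can be set against a background. Without the 6 libraries with adipocyte markers over 10 CPM, an alternative added after seeing the data, 12 were called (7 higher in males).

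Sums of markers of some nephron segments also differed between the sexes, and the levels of single markers are not given here. The sum of 6 markers of the straight part of the proximal tubule was 3349 to 4476 CPM in males and 974 to 3228 CPM in females, without overlap. The sum of 3 distal convoluted tubule markers ran the other way, also without overlap. It was 295 to 612 CPM in males and 622 to 1099 CPM in females. Sums of 4 intercalated cell markers were 115 to 169 CPM in males and 167 to 290 CPM in females. The sum of 6 androgen-responsive proximal tubule genes was 28080.0 to 48856 CPM in males and 2530 to 21660 CPM in females. The sum of 5 markers of the thick ascending limb was 2995 to 5479 CPM in males and 2862 to 10179 CPM in females. The sum of 9 general proximal tubule markers overlapped, with 14191 to 18920 CPM in males and 12018 to 18310 CPM in females. The sum of 4 podocyte markers was 146 to 251 CPM in males and 247 to 518 CPM in females. None of these markers was at 0 in every library, and their part in the differences above was not tested.

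The diet comparison, which is the question of the study, was made within each sex. In males, edgeR called 0 of the 35 genes, with 0.0379% of all genes tested called, and the lowest adjusted p of the list was 0.9996. DESeq2 and limma-voom also called 0. At an unadjusted p under 0.05 there were 2 of 35, versus 3.84% of all genes tested. The log2 fold changes (LP over NP) lay between -0.24 and 0.75 with a median of -0.06 (-0.0039 over all genes), and their SEs between 0.07 and 0.46, with 25 below 0 and 10 above.

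In males the smallest p belonged to *Acot1*, encoding the cytosolic thioesterase. LP males had 1864, 2493, 2924, 1394, and 2227 normalized counts, and NP males 1442, 761, 1371, 1318, and 2032. The ratio was 1.58-fold (log2 0.66, SE 0.24, unadjusted p = 0.0151, edgeR adjusted p = 0.9996), and NP male 5 lay among the LP males. *Acaa2* had a log2 fold change of 0.30 (SE 0.12, unadjusted p = 0.0242), with 1759 to 2572 in LP and 1639 to 2165 in NP males. *Hadh* had one of -0.15 (SE 0.08, unadjusted p = 0.0899). The groups overlapped for all 35 genes, versus 0.675% of all genes tested whose groups did not overlap.

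In females edgeR called 0 of the 35 genes and 0 of 13510 genes tested (0.0%), as did DESeq2 and limma-voom for the list. At an unadjusted p under 0.05 there were 3 of 35, versus 4.17% of all genes tested. The log2 fold changes lay between -1.06 and 0.82 with a median of 0.08 (-0.01 over all genes), and the SEs reached 1.05, so that differences of 2-fold could not be told from 0 for the most variable genes. LP and NP females did not overlap in 2 of 35 genes, *Acadvl* and *Etfa*, versus 2.96% of all genes tested. Both were higher in LP, versus 1.75% of all genes tested, and 0 were lower, versus 1.21%.

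*Acadvl* had 2336, 2479, 2442, 2596, and 2677 normalized counts in LP females and 2082, 1923, and 1312 in NP females. All LP females were above all NP females, by 1.41-fold on average (log2 0.50, SE 0.17, unadjusted p = 0.0161, edgeR adjusted p = 0.886). The exact permutation p was 0.0179, which is the smallest that 5 against 3 mice can give. *Etfdh* had 1905, 2463, 2696, 2527, and 2816 normalized counts in LP and 1779, 2168, and 1445 in NP females, with a log2 fold change of 0.46 (SE 0.19, unadjusted p = 0.0338). *Etfb* had 195, 125, 178, 249.2, and 141 in LP and 315, 123, and 684 in NP females, with a log2 fold change of -1.06 (SE 0.44, unadjusted p = 0.0398). All 3 rested in part on NP female 3, without which the log2 fold changes were 0.33, 0.33, and -0.30, and all 3 genes lie partly under exons of another gene.

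**Figure D4:**
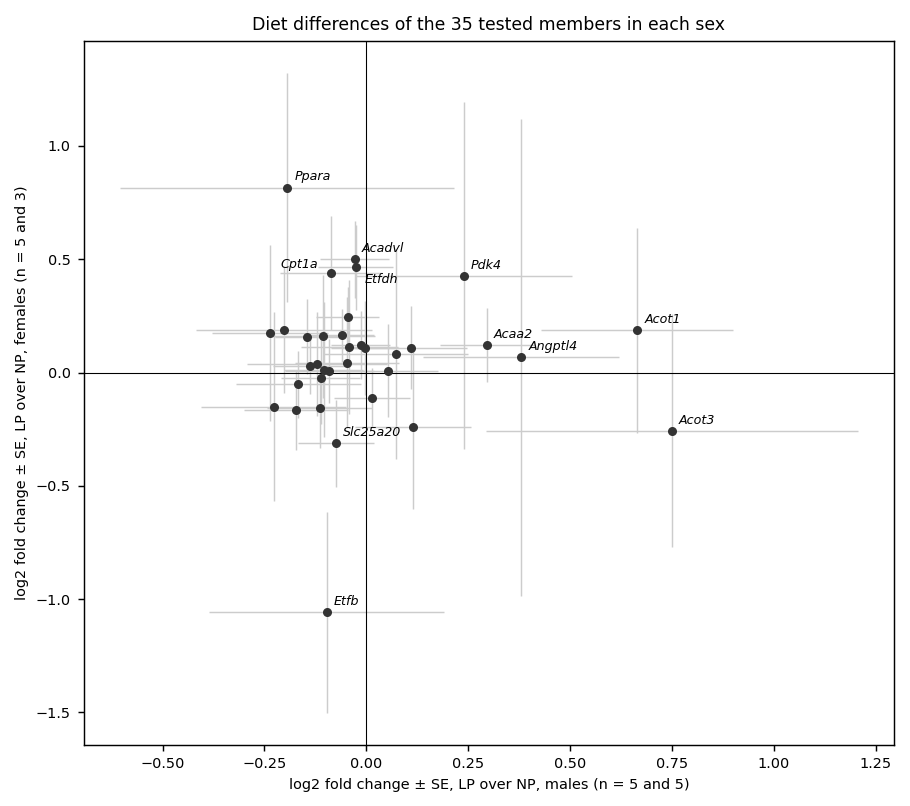
Each point is 1 of the 35 tested genes, with its log2 fold change (LP over NP) in males on the x axis and in females on the y axis. Bars are SE, and they are longer for females, of which 3 were NP. Acot1 and Acot3 lie farthest to the right, at 0.66 and 0.75, and Etfb lies lowest, at -1.06, and none of the points was called.

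Whether the diet effect differed between males and females was tested as an interaction over the 18 libraries. It was called for 0 of the 35 genes by edgeR, with 0.0158% of all genes tested called, and by DESeq2 and limma-voom. At an unadjusted p under 0.05 there were 3 of 35, versus 4.02% of all genes tested. These were *Acadvl* (0.53, SE 0.16, unadjusted p = 0.00509), *Etfdh* (0.49, SE 0.18, unadjusted p = 0.0145), and *Hsd17b4* (0.28, SE 0.12, unadjusted p = 0.0327), each given as the female log2 fold change less the male one. Their lowest adjusted p was 0.977. Over both sexes, diet was called for 0 of 35 genes by all 3 tools, with 0.0079% of all genes tested called by edgeR, and *Acadvl* (0.23, SE 0.08), *Etfdh* (0.22, SE 0.09), and *Acaa2* (0.21, SE 0.09) had unadjusted p-values under 0.05, 3 of 35 versus 6.50% of all genes tested.

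The receptor itself varied widely within groups. *Ppara* had 1132, 976, 726, 1390, and 954 normalized counts in LP males and 522, 2075, 1635, 1412, and 325 in NP males. LP females had 1494, 947, 2194, 1229, and 1625, and NP females 367, 1713, and 454. NP males and NP females spanned 6.38-fold and 4.67-fold, and LP males and LP females 1.91-fold and 2.32-fold, and the groups overlapped. *Ppargc1a* had 1297, 908, 772, 1193, and 1002 normalized counts in LP males and 914, 1431, 1132, 1315, and 873 in NP males. It had 1084, 1217, 1894, 1399, and 1877 in LP females and 1328, 1773, and 1271 in NP females. Neither gene was called for diet (edgeR adjusted p = 0.9996 for both in males, and 0.886 and 0.980 in females).

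Among females, the 3 libraries set apart differed from the others in a part of the list. *Angptl4* was at 178 and 110 normalized counts in LP females 1 and 2 and at 492 in NP female 3, versus 2877, 3962, and 2449 in LP females 3, 4, and 5 and 3272 and 1699 in NP females 1 and 2. Males lay between 1086 and 3029. *Pdk4* was at 219 and 273 in LP females 1 and 2 and at 859 in NP female 3, versus 1703, 3134, and 1662 in LP females 3, 4, and 5 and 1365 and 892 in NP females 1 and 2. Both genes were thus lowest in these 3 females among the 8. *Acot3* and *Acaa1b* ran the other way, with 495 to 852 and 5922 to 6156 normalized counts in the 3 libraries and 132.0 to 398 and 2764 to 4182 in the other females.

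Counted over the list, 12 of the 35 tested genes were below all other females in the 3 libraries and 2 were above, versus 1646 and 1394 of all 12665 genes tested. The 12 covered the carnitine shuttle (*Cpt1a*, *Cpt2*), mitochondrial oxidation (*Acadm*, *Hadha*, *Hadhb*), the peroxisome (*Ehhadh*, *Pex11a*), *Acot1*, *Acsl1*, *Angptl4*, *Pdk4*, and *Ppargc1a*. *Acads*, *Acaa2*, *Acaa1a*, and *Etfa* overlapped with the other females, with mean log2 differences between -0.05 and 0.02. Other genes that overlapped had larger mean log2 differences, down to -0.88 for *Cd36* and -0.82 for *Plin2*. In the other direction they reached 0.33 for *Hadh* and 0.43 for *Etfb*. In the 3 libraries, sums of 5 thick ascending limb markers, 2862, 5982, and 3021 CPM in the order above, were below those of the other females (6230.0 to 10179 CPM). Their sums of 6 markers of the straight proximal tubule, 974, 2232, and 1885 CPM, overlapped with those of the other females (1917 to 3228 CPM). These libraries had the lowest sums of 9 glucocorticoid-responsive genes among females, 516 to 786 CPM versus 1626 CPM or more. Their interferon sums were the lowest as well. Both lists were taken with earlier results of these data known, so these sums are not a separate observation. *Angptl4* and *Pdk4* are not on those lists, but their levels in these libraries are not a separate observation either. The libraries were grouped by results of these data, so the values are a description, no test was made, and the part of these markers and states in the values was not tested.

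**Figure D5:**
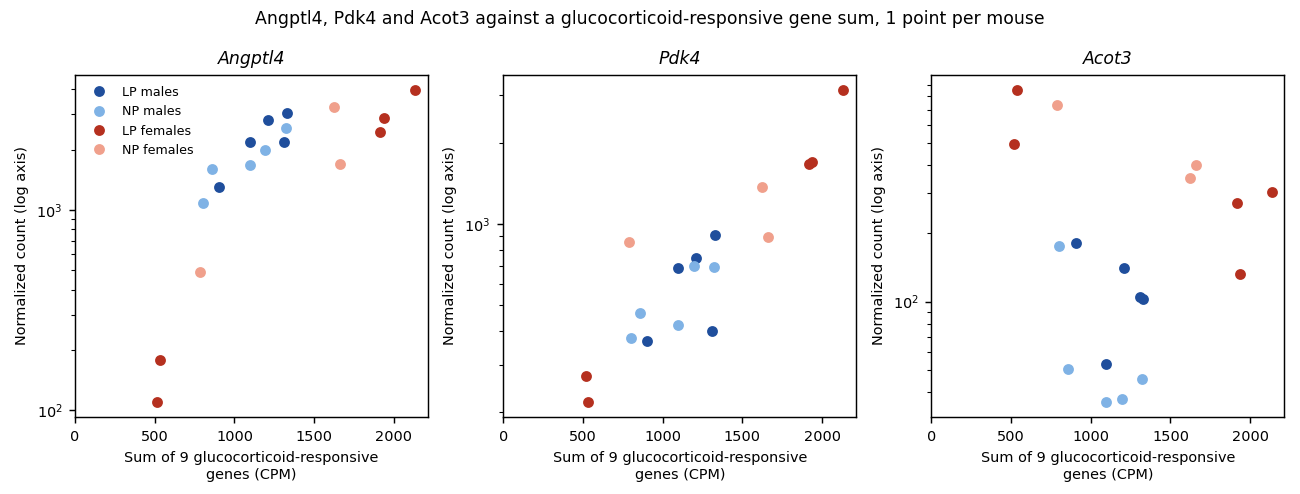
Normalized counts of Angptl4, Pdk4, and Acot3 (log axes) are plotted against the sum of 9 glucocorticoid-responsive genes in CPM, with 1 point per mouse. The 3 females with sums of 516 to 786 CPM have the lowest Angptl4 of all mice, at 110 to 492, and the highest Acot3, at 495 to 852.

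Other genes of the pathway were counted from 5 further lists of 132 genes on fatty acid transport and acyl-CoA synthesis, other mitochondrial oxidation and ketone genes, other peroxisomal genes, other PPAR targets, and receptors with their partners. Of 116 tested between the sexes, 39 were higher in males and 16 higher in females (edgeR), where 18.9% and 19.8% of all genes tested were called in these directions. The peroxisomal list had 17 of 30 higher in males and 1 higher in females, with a median log2 difference of 0.28 versus -0.05 over all genes. The other mitochondrial list had 7 of 20 higher in males and 4 higher in females, and the transport and synthesis list 5 and 6 of 19. The PPAR target list had 2 and 5 of 21, and the receptor list 8 and 0 of 26. Of the PPAR target list, 24 genes were tested in males. *Cyp4a12a*, *Cyp4a12b*, and *Cyp4a32* were among them but did not pass the filter on low counts in females. They were thus not tested between the sexes. *Cyp4a12a* had 11861 to 42571 normalized counts in LP males and 21430 to 28805 in NP males. The 2 and 5 therefore do not show which way the whole list leans.

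Higher in males with the smallest p-values were *Amacr*, encoding the racemase that prepares branched chains for peroxisomal oxidation (log2 difference 2.32, SE 0.12), and the medium-chain acyl-CoA synthetase genes *Acsm3* (8.02, SE 0.48) and *Acsm2* (2.29, SE 0.15). *Acsm3* had 16304 to 29124 normalized counts in males and 8.86 to 148 in females. Higher in females were *Cyp4a14*, encoding a fatty acid ω-hydroxylase (-5.24, SE 0.23), and *Slc27a1*, encoding a fatty acid transporter (-1.24, SE 0.11). *Cyp4a14* had 67.4 to 649 normalized counts in males and 6234 to 11963 in females. All 5 were called by edgeR with adjusted p-values of 1.96e-07 or less. Known PPAR targets thus occurred on both sides, with *Cd36* and *Vnn1* higher in males and *Cyp4a14* and *Acot3* higher in females.

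Diet was called for 0 of 119 genes of these lists in males and 0 of 119 in females, with 6 and 3 at an unadjusted p under 0.05 (edgeR), versus 3.84% and 4.17% of all genes tested. The 3 genes with the smallest p in males are named although they did not pass the adjustment, so they were chosen after their values were seen. *Cyp4a14* had 251 to 649 normalized counts in LP and 67.4 to 239.6 in NP males (log2 fold change 1.47, SE 0.31, unadjusted p = 4.98e-04, adjusted p = 0.597). *Phyh*, encoding the peroxisomal enzyme that starts phytanic acid breakdown, had 10672 to 14345 in LP and 15737 to 16777 in NP males (-0.38, SE 0.09, unadjusted p = 8.75e-04, adjusted p = 0.720). *Cyp4a10*, a close relative of *Cyp4a14*, had 3756 to 4310 in LP and 1820 to 3626 in NP males (0.48, SE 0.15, unadjusted p = 0.00757, adjusted p = 0.9996). LP and NP males did not overlap in any of the 3, versus 0.675% of all genes tested whose groups did not overlap. Because the 3 were chosen by their p, this separation adds no support of its own. In females the log2 fold changes of these genes were 0.08 (SE 0.21), 0.02 (SE 0.15), and 0.09 (SE 0.27).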

How the data were processed

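As deposited by the authors, the files hold raw counts of reads per gene for 18 libraries, grouped here by the labelled diet and sex. Per the authors' methods, poor reads were removed, adapters were cut, and STAR was run against GRCm39 with GENCODE vM36, giving a count per gene. The counts made without regard to strand were used, and reads not assigned to 1 gene (28.6% to 36.1%) were left out. Positions came from GENCODE vM39, in which 78168 of the 78239 gene identifiers were found.

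In R 4.3.3, edgeR 4.0.16 gave the main test, its quasi-likelihood test after TMM normalization, on genes that reached 10 counts in all libraries of a comparison, with Benjamini-Hochberg adjustment over all of them (13181 in males, 13510 in females, and 12665 over both). The authors used DESeq2. An SE is the absolute log2 fold change over the square root of F. Exact permutation tests were two-sided, on log2(normalized count + 1), with the size factors of DESeq2 1.42.0. Litters are not given, so the tests treated each mouse as independent, and p-values may be too small where littermates share a group. Python 3.11.15 with pandas 2.3.3, numpy 2.4.6, scipy 1.17.1, matplotlib 3.10.9, and Biopython 1.88 was used for tables, figures, and alignments. The fits were also run on simulated counts with known changes, and the outcome is not given here.

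The genes, the other lists, and the tests were chosen with earlier results of these data known. Values are given for the 12 called genes with the smallest adjusted p, the 3 smallest p-values in each diet comparison, the gene not tested, *Ppara*, and *Ppargc1a*, and otherwise mainly by range and count. Of the other lists, the 3 called genes with the smallest p in each direction are named, except 1 that is not reported here. Markers of adrenal cortex and liver summed to at most 4.19 and 22.6 CPM.

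Alternatives were other filters (none, filterByExpr, or a mean of 10 counts), the size factors or Wald test of DESeq2, limma-voom (limma 3.58.1), the replicate number as a block, leaving out each library, a 1.5-fold minimum, 1 diet only, and leaving out the 3 females set apart. Leaving out mitochondrially encoded genes or the 6 libraries with adipocyte markers over 10 CPM was added after seeing the data.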

Additional observations from a re-analysis of the deposited data

Results flagged for a closer look

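Samples far from the others of their group were looked for in 105 sets of 5 mice with Dixon's ratio on log2 values. Of these, 5 were found, where chance gives about 1 in 20 sets. *Acadvl* was at 2311 normalized counts in NP male 5, the lowest of its group, where the other NP males had a median of 2674. *Acot3* was at 175 in NP male 5, where the others had a median of 41.5. *Acot4*, encoding a peroxisomal thioesterase, was at 1532 in LP female 1, the highest of its group, where the others had a median of 1182. *Plin2* was at 1225 in LP male 3, the lowest of its group, where the others had a median of 1755. *Cd36* was at 608 in LP female 1, the lowest of its group, where the others had a median of 2609. Groups of 3 mice, which include the NP females, were not examined in this way.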

How the results depend on the processing

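The number of genes called for diet was 0 in males, in females, for the interaction, and over both sexes under every alternative run, including each library left out (10, 8, 18, and 18 fits, with counts from 0 to 0). For sex, 21 genes were called, and leaving out each library gave 20 to 22. The count was 13 in NP mice only, 10 in LP mice only, 12 without the 6 libraries with adipocyte markers (which leaves 1 NP female, assumed to vary like the other groups), and 8 with at least a 1.5-fold change, settings with fewer mice or a stricter call. It was 18 without the 3 females set apart, 24 with no filter, 22 with filterByExpr, 23 with DESeq2, and 20 with limma-voom. The share of all genes called under these settings is not given here, so these counts cannot be set against a background. *Fabp1* entered the test with no filter and with filterByExpr and was then called as higher in females. Over the 21 genes called for sex and the 30 alternatives, 584 values kept their call, 46 lost it (12 of them for *Pdk4*), and none changed direction. With the replicate number as a block, 20 genes were called for sex (*Pdk4* lost, adjusted p = 0.0692) and 0 for diet. The median log2 fold change of the list for diet in females was 0.08 and turned to -0.11 with the replicate block and to -0.07 without the libraries with adipocyte markers, and the cause was not tested. The labels do not say whether the numbers pair the mice, and correlations over so few pairs cannot settle it. After group means were removed, same-numbered LP and NP mice correlated at -0.27 to 0.30 in males and -0.58 to -0.37 in females. Same-numbered males and females of the same diet correlated at -0.25 to 0.46. Depth limits *Fabp1* alone, with at most 15.96 normalized counts.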
